A study of Mus musculus with 4 samples.

Results

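The BCL2 family was examined in MEL cells, a mouse erythroleukemia line that can be driven toward erythroid maturation with dimethyl sulfoxide (DMSO) in the medium. The members were the 10 genes Bcl2, Bcl2l1, Mcl1, Bcl2l11, Bax, Bak1, Bad, Bid, Bbc3 and Bok, chosen by symbol in a table of 47935 loci; each had 1 row, and none of those rows carried a second symbol. Ribosomal RNA-depleted total RNA had been sequenced from 2 uninduced samples and 2 samples induced with 1.5% DMSO, all from the same line. The labels give neither the length of exposure nor whether replicates 1 and 2 came from separate cultures. The p-values set each group difference against scatter among these 4 samples, estimated partly over all tested loci. That scatter may be technical. Expression is in FPKM (fragments scaled by transcript length and library size), so levels of different genes are compared per length.

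BCL2 family proteins decide whether the outer mitochondrial membrane stays intact. BCL2, BCL-XL (encoded by Bcl2l1) and MCL1 restrain cell death (called guardians below), and BAX, BAK (Bak1) and BOK form the pores that release cytochrome c. The BH3-only proteins BIM (Bcl2l11), BAD, BID and PUMA (Bbc3) relay stress by binding other members of the family. In the erythroid lineage BCL-XL and MCL1 are known for keeping maturing and early cells alive, and the BCL2-related protein NIX (Bnip3l) for clearing mitochondria from reticulocytes.

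Values summed to between 1055861 and 1325806 FPKM per sample, and 12151 to 12645 loci per sample reached 1 FPKM. The number of fragments was not given; the step between the lowest values of short single-exon genes put the libraries at 0.68 to 1.00 of the deepest, the induced ones lowest. Summed markers of the erythroid lineage (8 genes, including globins and Alas2) ran from 1280 to 1678 FPKM in uninduced and from 58664 to 112270 FPKM in induced samples. Markers of other blood and stromal cells were low for macrophages (5 genes, 5.74 to 8.08 FPKM uninduced and 1.29 to 2.17 induced), lymphocytes (4 genes, at most 0.31 FPKM in all) and fibroblasts (4 genes, at most 0.21 FPKM in all, with Dcn at 0 in every sample). Megakaryocyte markers were present in both groups (3 genes, 247 to 402 FPKM uninduced and 197 to 279 induced, mostly Pf4 and a row that Itga2b shares with Gpatch8), and their part in the results below was not tested. In bulk samples, fewer cells of a type and less RNA per cell cannot be told apart.

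After induction the pore-former Bax fell and the BH3-only gene Bcl2l11 rose. The 3 members that restrain cell death had higher mean levels without passing the test, and the groups overlapped for Bcl2l1. The shared row of Bcl2l2, a guardian outside the members, was lower in both induced samples and did not pass. Of the 10 genes, 9 passed the filter of at least 1 FPKM in at least 2 samples and were tested; the 1 below it was Bok. In limma-trend with Benjamini-Hochberg adjustment over 12890 loci, 1 of the 9 rose, 1 fell and 7 did not pass an adjusted p of 0.05. Over all loci tested, 26.2% passed, 11.5% higher and 14.7% lower, so 2 of 9 (22.2%) is close to that background. The median log2 difference of the 9 genes, induced minus uninduced, was 0.29, against 0.03 over all loci tested. The samples of the 2 groups did not overlap for 6 of the 9, 5 higher and 1 lower, where 70.8% of all loci tested did not overlap. Under quantile scaling the calls changed to 3 higher and 0 lower (Bcl2l11, Bad and Mcl1). Under scaling by sums without globin genes and the 10 most abundant loci, 1 was higher (Bcl2l11) and 0 lower.

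**Figure D1:**
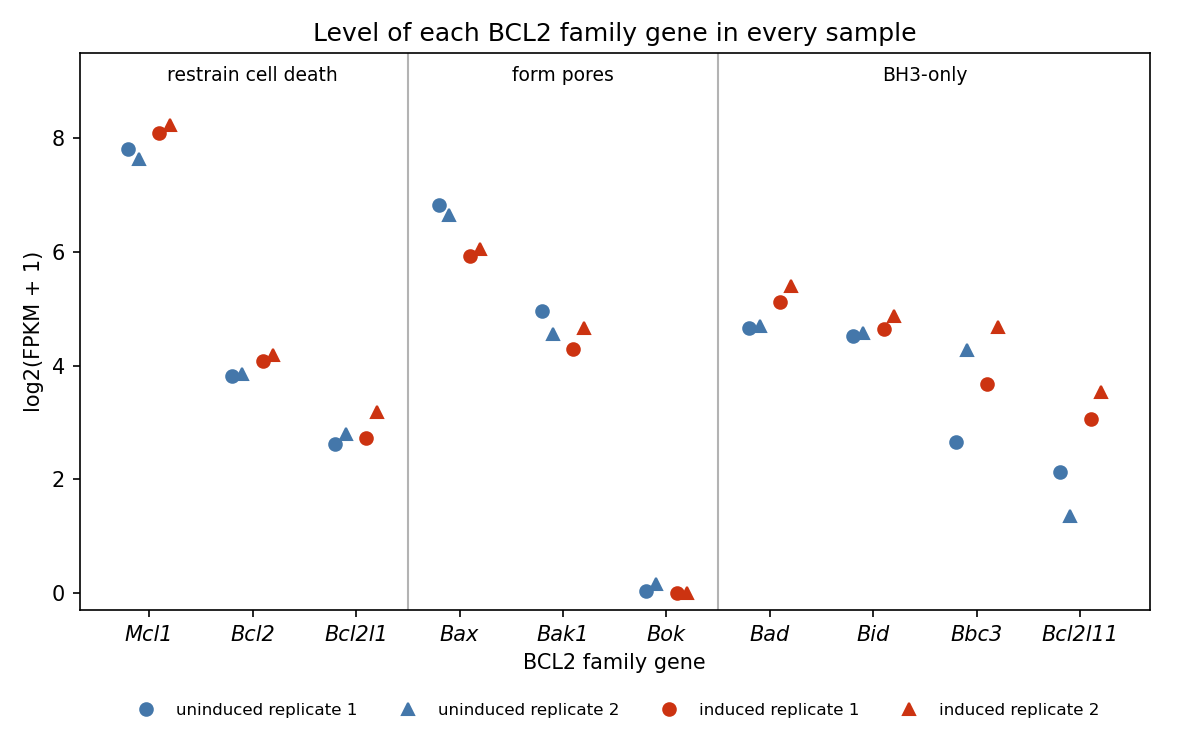
Level of each of the 10 genes in every sample, as log2(FPKM + 1), grouped by the role of the protein; blue marks uninduced and red induced samples, circles replicate 1 and triangles replicate 2. Both induced samples sit below both uninduced ones for Bax (60.22 and 65.44 against 113.05 and 99.46 FPKM) and above them for Bcl2l11 (7.31 and 10.55 against 3.36 and 1.56 FPKM), while Bbc3 and Bak1 overlap.

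The 250 bases before the transcription start of the 2 genes that passed the test are shown because each holds a short motif found in few windows of this size. They are read 5′ to 3′ on the gene's strand from RefSeq (GRCm38.p6), with the motifs named for each in capitals; GC boxes are left in lower case. The Bax stretch is chr7:45466899-45467148, minus strand, and its capitals mark an E-box.
Bax: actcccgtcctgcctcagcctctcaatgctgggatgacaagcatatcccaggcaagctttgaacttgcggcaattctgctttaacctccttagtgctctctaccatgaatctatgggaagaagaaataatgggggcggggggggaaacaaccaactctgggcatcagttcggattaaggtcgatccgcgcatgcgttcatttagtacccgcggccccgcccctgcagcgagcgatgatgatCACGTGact
The Bcl2l11 stretch is chr2:128125788-128126037, plus strand, before the first of the gene's annotated starts, and its capitals mark a forkhead motif and then, as ATTGG on this strand, a CCAAT box.
Bcl2l11: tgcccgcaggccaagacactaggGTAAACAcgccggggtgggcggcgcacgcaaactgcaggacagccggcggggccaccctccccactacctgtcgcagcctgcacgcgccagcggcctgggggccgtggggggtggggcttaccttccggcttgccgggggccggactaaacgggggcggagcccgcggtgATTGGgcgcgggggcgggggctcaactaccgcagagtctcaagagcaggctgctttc

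Windows of 300 bases (250 before to 50 after a start) were found for all 10 genes, 16 windows in all, some of which overlap. Both strands were searched for 6 motifs, none of which holds the letters of another. The E-box, searched as CACGTG, was in 2 of the 16 windows and in 7.15% of all 32851 windows of this length. The 2 were from Bax (from base -9 and again from base 36, counted from the start) and Bbc3. The forkhead motif, searched as GTAAACA, was in 2 of the 16 windows, from Bcl2l11 (from base -227) and Bbc3, and in 3.65% of all windows. The other Bcl2l11 window did not hold it. The GATA motif, searched as AGATAA, was in 1 of the 16 windows, at an internal start of Bcl2l1 (11.2% of all windows). The STAT motif, searched as TTCNNNGAA, was in 0 of the 16 windows (8.3% of all windows). The CCAAT box, searched by those letters, was in 4 of the 16 windows (Bcl2l11, Bbc3 and Bad) and in 37.4% of all windows. The GC box, searched as GGGCGG, was in 11 of the 16 windows, from all genes but Bcl2l1 and Bak1, and in 35.7% of all windows; the median GC content was 65.7% for the 16 windows and 52.7% for all. These matches describe letters in the windows and show no binding.

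Among the genes that restrain cell death, Mcl1 had by far the most transcript. Mcl1 (chromosome 3, 95658788 to 95663176, plus strand) encodes a short-lived guardian of the mitochondrial membrane. It measured 223.87 and 198.24 FPKM in the uninduced and 272.07 and 300.4 FPKM in the induced samples, replicates 1 and 2 in that order here and below. Both induced samples were above both uninduced ones, 1.36-fold by the ratio of means. The log2 difference of 0.44 ± 0.20 (SE) did not pass (limma adjusted p = 0.166; 95% interval -0.08 to 0.96), though it did under quantile scaling (0.67, adjusted p = 0.0493). Among the tested loci of each sample, Mcl1 stood at the 95.4 to 97.1 percentile.

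Bcl2 (chromosome 1, 106538178 to 106714274, minus strand), the founding member and a long-lived guardian, was far below Mcl1 in each sample. It measured 13.17 and 13.49 FPKM uninduced and 15.95 and 17.22 FPKM induced. The groups did not overlap, yet the log2 difference of 0.29 ± 0.19 did not pass (adjusted p = 0.284; 95% interval -0.19 to 0.78). Bcl2l1 (chromosome 2, 152780668 to 152831728, minus strand), the gene of BCL-XL, measured 5.15 and 5.94 FPKM uninduced and 5.62 and 8.05 FPKM induced. Here the groups overlapped, and the log2 difference was 0.24 ± 0.25 (adjusted p = 0.487; 95% interval -0.39 to 0.88). The interval is wide enough to hold a rise as large as the fall of Bax. The Bcl2l1 row pools 9 transcripts, and its long form and short form, which act in opposite ways, cannot be told apart in a value per locus.

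Among the 3 guardian members, the make-up hardly differed between the states. Bcl2l2, a guardian outside the 10 members, is not counted here. Its row, shared with other genes, measured 76.09 and 88.59 FPKM uninduced and 51.75 and 58.86 FPKM induced. Mcl1 was 92.4% and 91.1% of the summed FPKM of Mcl1, Bcl2 and Bcl2l1 in the uninduced and 92.7% and 92.2% in the induced samples. Bcl2l1 was 2.13% and 2.73% of it before and 1.91% and 2.47% after induction, ranges that overlap. The ratio of Bcl2 to Bcl2l1 FPKM was 2.56 and 2.27 uninduced and 2.84 and 2.14 induced, again overlapping.

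The pore-forming genes were led by Bax, which fell. Bax (chromosome 7, 45461697 to 45466898, minus strand) encodes a cytosolic protein that moves into the mitochondrial membrane when activated. It measured 113.05 and 99.46 FPKM in the uninduced and 60.22 and 65.44 FPKM in the induced samples. Both induced samples lay well below both uninduced ones, at 0.591 of the uninduced mean. The log2 difference was -0.75 ± 0.19 (limma adjusted p = 0.0449; 95% interval -1.23 to -0.26). Bax kept its direction but did not pass under quantile scaling (-0.48, adjusted p = 0.0972), under sums without globin genes and the 10 most abundant loci (-0.68, adjusted p = 0.0907), with no filter (adjusted p = 0.0807), or without any 1 of the 4 samples (adjusted p 0.102 to 0.176).

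Bak1 (chromosome 17, 27019810 to 27029009, minus strand) encodes the pore-former that resides in the mitochondrial membrane. It measured 30.03 and 22.59 FPKM uninduced and 18.54 and 24.18 FPKM induced. The highest induced sample was above the lowest uninduced one, and the log2 difference of -0.29 ± 0.25 did not pass (adjusted p = 0.414; 95% interval -0.92 to 0.34). Bok (chromosome 1, 93685660 to 93695764, plus strand), a pore-former controlled by degradation at the endoplasmic reticulum, was too low to be tested, at 0.03 and 0.11 FPKM uninduced and listed at 0 in both induced samples. Bax was 79.0% and 81.4% of the summed FPKM of Bax, Bak1 and Bok in the uninduced and 76.5% and 73.0% in the induced samples.

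**Figure D2:**
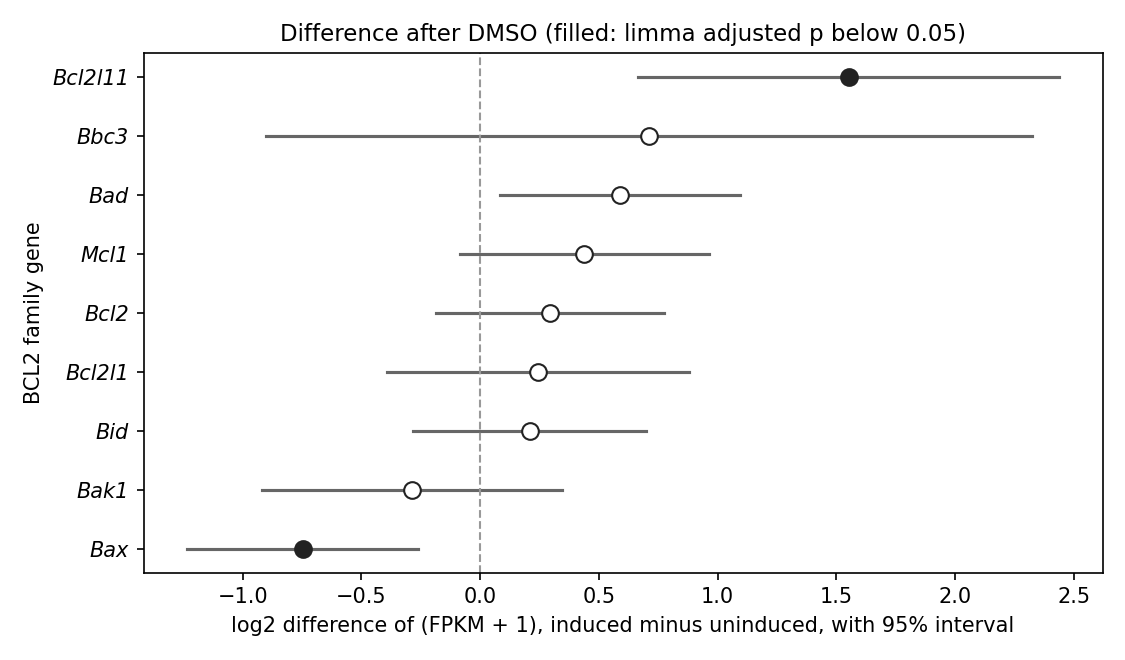
Log2 difference of FPKM + 1 (induced minus uninduced, x axis) for the 9 tested genes (y axis), from limma over all 4 samples; bars are 95% intervals and filled points passed an adjusted p of 0.05. Bcl2l11 (1.55) and Bax (-0.75) are filled; the interval of Bad (0.08 to 1.10) lies above 0 as well, but Bad did not pass after adjustment.

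Among the BH3-only genes Bcl2l11 rose, from the lowest level of the group. Bcl2l11 (chromosome 2, 128126038 to 128162547, plus strand) encodes BIM, which binds all the guardians and is a known target of FOXO factors. It measured 3.36 and 1.56 FPKM in the uninduced and 7.31 and 10.55 FPKM in the induced samples. Both induced samples were above both uninduced ones, and the means differed 3.63-fold. The log2 difference was 1.55 ± 0.35 (limma adjusted p = 0.0336; 95% interval 0.67 to 2.44). It passed in 7 of 8 alternative settings with all 4 samples, the exception being no filter (adjusted p = 0.11), and in 0 of the 4 fits without 1 sample (log2 difference 1.17 to 1.94, adjusted p 0.0680 to 0.173).

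Bad (chromosome 19, 6941861 to 6951899, plus strand) encodes a BH3-only protein that growth factor kinases hold inactive in the cytosol. It measured 24.36 and 24.78 FPKM uninduced and 33.87 and 41.43 FPKM induced. The groups were apart, and the log2 difference was 0.59 ± 0.20. It had an unadjusted p of 0.0305 and did not pass after adjustment (adjusted p = 0.0843; 0.73 with adjusted p = 0.0464 under quantile scaling). Bid (chromosome 6, 120891930 to 120916853, minus strand), which caspase-8 cleaves to link death receptors to mitochondria, measured 22.05 and 22.75 FPKM uninduced and 24.08 and 28.18 FPKM induced. Its groups were apart by little, and the log2 difference of 0.21 ± 0.19 did not pass (adjusted p = 0.442; 95% interval -0.28 to 0.70).

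Bbc3 (chromosome 7, 16308393 to 16318205, plus strand), the gene of the p53 target PUMA, varied more between replicates than between groups. It measured 5.27 and 18.45 FPKM uninduced and 11.75 and 24.68 FPKM induced, and in both groups the library numbered 2 was the higher one, by 1.63 and 1.01 on the log2 scale. The log2 difference between groups was 0.71 ± 0.63 (adjusted p = 0.427; 95% interval -0.90 to 2.33), and it turned to -0.10 without uninduced replicate 1. Beside it, the kinase gene Pim1 measured 42.68 and 130.04 FPKM uninduced and 128.29 and 244.6 FPKM induced, and the stress factor gene Ddit3 48.85 and 326.3 FPKM uninduced and 41.1 and 50.98 FPKM induced; both were named after their values were seen, and any part in the Bbc3 values was not tested.

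Summed by role, the guardians and the BH3-only genes were a larger share of the family's transcripts in both induced than in both uninduced samples. The pore-formers were a smaller share. The guardians summed to 242 and 218 FPKM uninduced and 294 and 326 FPKM induced, the pore-formers to 143 and 122 FPKM and then 78.8 and 89.6 FPKM, and the BH3-only genes to 55.0 and 67.5 FPKM and then 77.0 and 105 FPKM. As a share of all 10 genes, the guardians were 55.0% and 53.4% uninduced and 65.3% and 62.6% induced (54.2% ± 1.11 and 64.0% ± 1.93, SD, n = 2 each). The pore-formers went from 32.5% and 30.0% to 17.5% and 17.2%. The BH3-only genes were 12.5% and 16.6% before and 17.1% and 20.2% after, and within them Bcl2l11 was 6.10% and 2.31% before and 9.49% and 10.1% after. These shares rest mostly on Mcl1 and Bax, the most abundant genes of their groups, and were not tested. Bcl2l2, a guardian outside the 10 members, is not in these sums. The means of its shared row were 82.3 FPKM uninduced and 55.3 FPKM induced, above those of Bcl2 and Bcl2l1. The BH3-only gene Bmf is not in them either, so the shares hold for the 10 members only. The ratio of Mcl1 to Bax FPKM, picked after its values were seen, was 1.98 and 1.99 in the uninduced and 4.52 and 4.59 in the induced samples; any scaling of a whole library by 1 factor leaves it as it is.

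**Figure D3:**
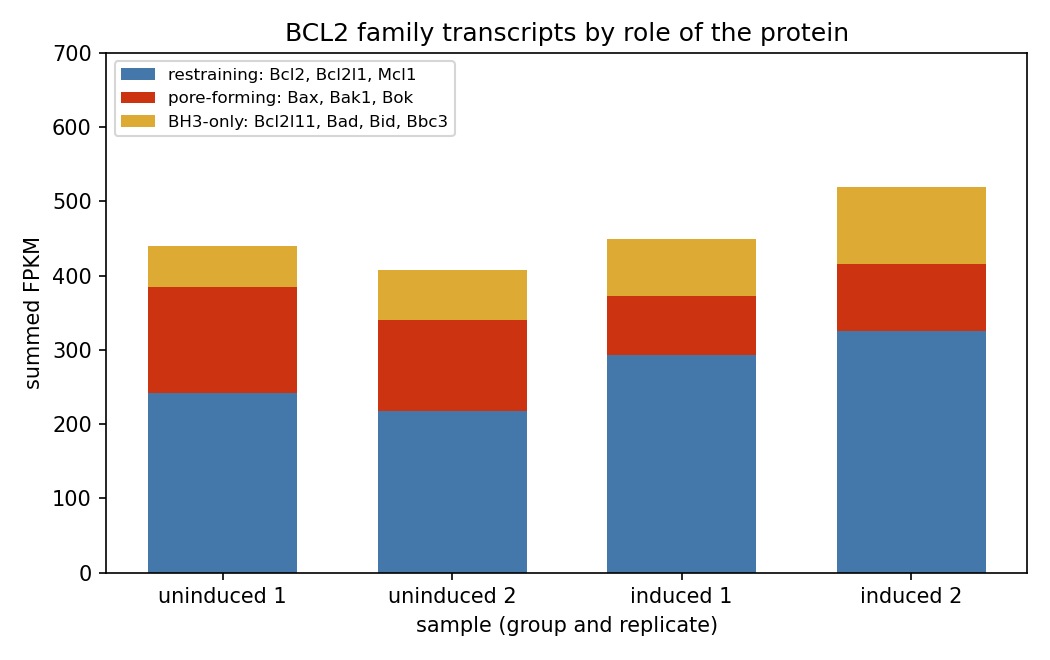
Summed FPKM (y axis) of the genes that restrain cell death (blue), form pores (red) or are BH3-only (yellow) in each of the 4 samples (x axis). The red part is 143 and 122 FPKM in the uninduced and 78.8 and 89.6 FPKM in the induced samples. The blue and yellow parts are each larger in both induced than in both uninduced samples.

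The order of levels was similar in both states at its top and bottom. In uninduced samples the means ran from Mcl1 (211 FPKM) through Bax (106), Bak1 (26.3), Bad (24.6), Bid (22.4), Bcl2 (13.3), Bbc3 (11.9), Bcl2l1 (5.55) and Bcl2l11 (2.46) to Bok (0.07). Of the neighbours in that order, Bak1 and Bad, Bcl2 and Bbc3, and Bbc3 and Bcl2l1 overlapped in their sample values, and the others did not. In induced samples the order was Mcl1 (286 FPKM), Bax (62.8), Bad (37.6), Bid (26.1), Bak1 (21.4), Bbc3 (18.2), Bcl2 (16.6), Bcl2l11 (8.93), Bcl2l1 (6.84) and Bok, listed at 0. There Bid overlapped with Bak1, Bak1 with Bbc3, Bbc3 with Bcl2, and Bcl2l11 with Bcl2l1, and the other neighbours did not overlap. Over the 4 samples, the genes with the most alike patterns (Euclidean distance of log2(FPKM + 1) centred on each gene's mean) were Bcl2 and Bid, at 0.12. The nearest to Mcl1 was Bcl2 (0.21), and the nearest to Bax was Bak1 (0.52). Bcl2l11 and Bbc3 were over 1 unit from every other member (nearest Bad at 1.12 and Bcl2l1 at 1.20). The values were not scaled by each gene's spread, so genes that differ little between samples lie close together. Likeness over 4 samples is a description.

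Exons of 5 members overlap those of another gene in GENCODE M21, and strandedness was not given, so reads of opposite-strand partners cannot be told apart. Bid shares 628 exon bases (17.7% of its 3550) with the BCL2-related gene Bcl2l13 on the other strand, whose row measured 16.72 and 19.78 FPKM uninduced and 21.56 and 26.53 FPKM induced. Bad shares 524 (20.5%) with Gpr137, Bak1 437 (18.2%) and 177 with 2 gene models named Ggnbp1, and Bcl2 558 (6.09%) with the antisense gene D630008O14Rik, at 9.68 to 15.09, 9.95 to 16.57 and 2.16 to 5.67 FPKM, the Ggnbp1 row being shared with Zbtb9. Bax shares 192 exon bases (12.2%) with the same-strand model Gm45808, which has no row of that symbol. These percentages are of the exons of all transcripts of a gene in GENCODE M21. The Bax row lists 1 transcript where that annotation has 6, and the Bad row lists 5 where it has 9. Bcl2l11, Bcl2l1, Mcl1, Bbc3 and Bok share none.

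Among 15 other BCL2-related genes, 2 of the 8 that could be tested rose and none fell. The list's median log2 difference was 0.48, and its share of 25.0% called is near the 26.2% over all loci. Bnip3l, the mitophagy receptor NIX, rose from 90.5 ± 24.9 to 195 ± 2.12 FPKM (SD, n = 2 each here and below; log2 difference 1.12 ± 0.25, adjusted p = 0.0343). Its relative Bnip3 was the most abundant of the list, at 166 ± 34.8 and 255 ± 19.5 FPKM, and did not pass (0.64 ± 0.24, adjusted p = 0.105). Bmf, a BH3-only gene, rose from 1.56 ± 0.12 to 4.46 ± 1.27 FPKM (1.08 ± 0.25, adjusted p = 0.0369). The guardian Bcl2l2 has a row shared with Pabpn1 and Gm20521, and Bcl2l15 and Bcl2a1b also share rows, so these 3 were left out. The Bcl2l2 row was lower in both induced samples, at 82.3 ± 8.84 and then 55.3 ± 5.03 FPKM. It did not pass (-0.56 ± 0.20, limma adjusted p = 0.0918). Nor did the rows of Bcl2l15 (0.21, limma adjusted p = 0.488) and Bcl2a1b (-0.02, limma adjusted p = 0.966). Pmaip1, the gene of NOXA that targets MCL1, was at 4.85 ± 0.34 and 5.04 ± 1.31 FPKM (0.03 ± 0.25, adjusted p = 0.939).

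Downstream of the membrane, 5 of 20 genes fell and 1 rose, with a median log2 difference of -0.15. The 30.0% called is near the 26.2% over all loci. The fallen genes encode proteins of the mitochondrion or a nuclease. Endog, a mitochondrial nuclease, went from 17.2 ± 1.01 to 4.32 ± 1.34 FPKM (-1.80 ± 0.25, adjusted p = 0.0155), and Htra2, a protease of the intermembrane space that antagonises IAP proteins, from 50.5 ± 3.85 to 14.1 ± 1.53 FPKM (-1.78 ± 0.20, adjusted p = 0.0128). Vdac2, an outer membrane channel that binds BAK and BAX, went from 165 ± 8.09 to 81.4 ± 2.09 FPKM (-1.01 ± 0.18, adjusted p = 0.0223). Aifm1, a flavoprotein of the intermembrane space, and Dffb, the caspase-activated DNase, fell by 1.08 and 0.88 on the log2 scale, and neither passed under sums without globin genes and the 10 most abundant loci. The gene that rose was Birc2, an IAP ubiquitin ligase, from 15.1 ± 1.18 to 34.4 ± 0.98 FPKM (1.14 ± 0.19, adjusted p = 0.0192). The most abundant of the list, Vdac1, was at 183 ± 9.91 and 132 ± 2.32 FPKM and did not pass (-0.47 ± 0.19, adjusted p = 0.119). Nor did the apoptosome genes Apaf1, Cycs and Casp9, or the caspase genes Casp6 and Casp2.

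The death receptor arm that feeds BID had 0 of 5 tested genes called by limma (2 at an unadjusted p under 0.05, where 43.1% of all loci had one). Those 2 were Tnfrsf1a, lower, and Casp8, higher. The list's median log2 difference was 0.26, with 4 genes positive and 1 negative. Tradd, an adaptor, was its most abundant gene at 22.5 ± 2.91 and 27.1 ± 4.23 FPKM, and Tnfrsf1a, a TNF receptor, was next by the mean over all 4 samples, though not among induced samples alone, at 16.2 ± 1.65 and 9.59 ± 1.04 FPKM (-0.70 ± 0.21, adjusted p = 0.0631). Casp8, the gene of caspase-8, was at 6.81 ± 1.91 and 11.8 ± 0.95 FPKM and did not pass (0.73 ± 0.25, limma adjusted p = 0.0896). Fas and Fasl were listed at 0 in every sample. Ripk1, a kinase of this arm, was left out because it shares a row with Gm17084; that row went from 7.85 ± 0.73 to 21.2 ± 1.53 FPKM (limma adjusted p = 0.0171). Of 14 tested genes for turnover and modification of the family, 2 fell and none rose (14.3% called against 26.2% of all loci, median 0.19). The direction of these calls depended on the setting: 1 rose and 1 fell under quantile scaling, and 3 rose and 2 fell with a replicate block. Another 3 genes of the list, Huwe1, Usp9x and Trim17, share rows and were left out. The Trim17 row was lower after induction, at 212 ± 42.5 and then 98.8 ± 11.9 FPKM (-1.08 ± 0.24, limma adjusted p = 0.0323). The Usp9x row was higher in both induced samples and did not pass (1.35 ± 0.56, limma adjusted p = 0.131). Nor did the Huwe1 row, whose groups overlapped (0.08 ± 0.30, limma adjusted p = 0.863). Pim3, a kinase that can phosphorylate BAD, went from 28.8 ± 1.32 to 8.81 ± 0.06 FPKM (-1.60 ± 0.19, adjusted p = 0.0128). Its relatives Pim1 and Pim2 had higher means after induction and did not pass. Pim1 differed by 1.24 ± 0.60 (limma adjusted p = 0.181), with overlapping groups, and Pim2 by 0.77 ± 0.21 (limma adjusted p = 0.0518). Ywhaz, an adaptor that holds phosphorylated BAD in the cytosol, went from 307 ± 55.3 to 146 ± 7.73 FPKM (-1.06 ± 0.22, adjusted p = 0.0302), and it did not pass under quantile scaling or sums without globin genes and the 10 most abundant loci. Tpt1, which stabilises MCL1, was the most abundant, at 343 ± 0.76 and 620 ± 110 FPKM, and did not pass (0.84 ± 0.24, adjusted p = 0.0564).

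Of 10 transcription factors known to control members of the family, 1 rose and 2 fell (30.0% called, near the 26.2% over all loci; median -0.50). Foxo3, an activator of Bcl2l11 and Bbc3, rose from 21.5 ± 2.33 to 111 ± 24.8 FPKM (2.30 ± 0.24, adjusted p = 0.0115). Stat5a, which acts on Bcl2l1 downstream of the erythropoietin receptor, fell from 25.0 ± 1.80 to 9.95 ± 0.14 FPKM (-1.25 ± 0.19, adjusted p = 0.0175). Myc, which binds E-boxes with MAX, fell from 33.8 ± 1.14 to 12.1 ± 0.81 FPKM (-1.41 ± 0.19, adjusted p = 0.0144). Trp53, the p53 gene, was at 39.3 ± 6.85 and 44.1 ± 13.0 FPKM (0.14 ± 0.28, adjusted p = 0.724), and Gata1, the most abundant, at 268 ± 30.4 and 410 ± 89.3 FPKM (0.60 ± 0.25, adjusted p = 0.138). Whether any of these acted on the family here was not tested. None of the 13 called genes outside the 10 members passed with no filter, and without 1 sample only Foxo3 did, in 1 of the 4 fits.

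**Figure D4:**
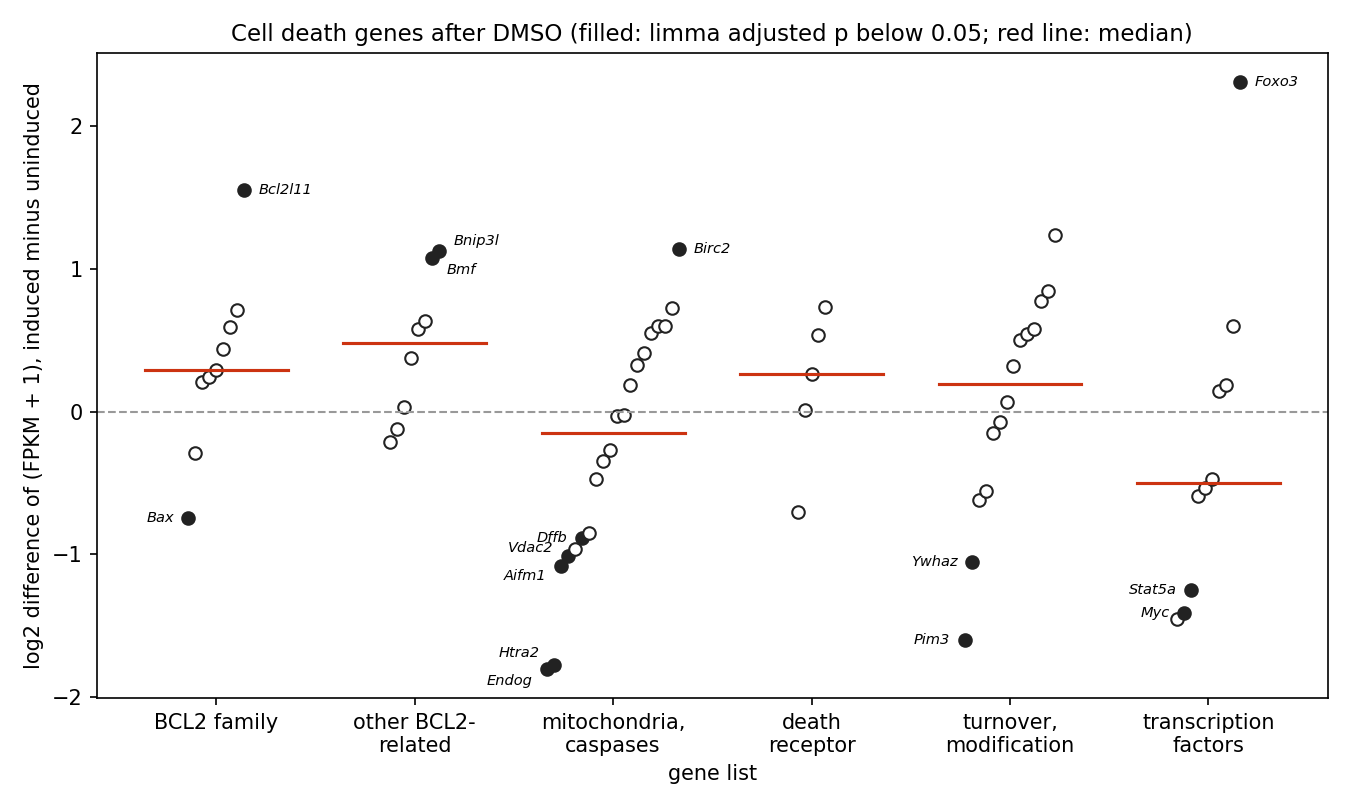
Log2 difference of FPKM + 1 (induced minus uninduced, y axis) for the tested genes of the BCL2 family and of 5 other lists (x axis); filled and named points passed a limma adjusted p of 0.05, and red lines are medians. The filled points lie on both sides of 0, with 5 of the 6 in the list of mitochondrial genes and caspases below it.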

How the data were processed

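RNA of 2 uninduced and 2 DMSO-induced samples of MEL cells was sequenced after depletion of ribosomal RNA, per the labels' protocols. TopHat2 and GRCm38 were used, per the submitters' processing notes; the quantifier, annotation release, read strand and sequencing depth are not given in the sources used here. In 1 table, the authors deposited a column of FPKM per sample; the unit was inferred, since per the file headers the table has the layout that Cufflinks writes, and the values are not whole and sum to different totals above those of TPM. FPKM is relative to each library's total, so abundant transcripts lower the value of others. Because the steps of low values depend on length, no counts were recovered and no count model was used.

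Values were tested as log2(FPKM + 1), which understates changes of low genes, for the 12890 loci that reached 1 FPKM in at least 2 samples, with limma 3.58.1 in R 4.3.3 (trend, not robust; group as the only term; Benjamini-Hochberg over all loci at 0.05). The fit was tested on simulated data. Positions and overlaps come from GENCODE M21 and promoter windows from RefSeq. The members, the 5 other lists, the markers, the motifs and the alternatives were chosen with earlier results of these data known. All members were named with values. From the other lists, the called genes (up to 6) and the 2 most abundant were named. Pmaip1, Tnfrsf1a, Fas, Fasl, Trp53, Pim1, Pim2, Ddit3, Ripk1 and Casp8 were added after their values were seen. So were Apaf1, Cycs, Casp9, Casp6, Casp2 and the shared rows of Bcl2l2, Bcl2l15, Bcl2a1b, Huwe1, Usp9x and Trim17. Some genes of the lists are not reported here by name. Rows with several symbols were left out of lists. A gene with 2 rows counted by its more abundant one.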

Additional observations from a re-analysis of the deposited data

How the results depend on the processing

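With 2 samples a group, limits come mainly from the number of samples and the filter. Over the 12 alternatives, Bad, Mcl1, Bcl2, Bcl2l1, Bid and Bak1 kept their direction, as did Bax (-0.84 to -0.48) and Bcl2l11 (1.17 to 1.94). With no filter (loci at 0 in every sample still left out) 30 loci passed instead of 3377, and 0 of the 10 members (Bcl2l11 1.55, adjusted p = 0.11; Bax -0.75) and 0 in the other BCL2-related, downstream, turnover and regulator lists. Leaving out 1 sample gave 14 to 486 loci, 0 of the 10 members each time (Bax -0.84 to -0.66; Bcl2l11 1.17 to 1.94), 0 in the 4 other lists and 0 to 1 regulators. There Bbc3 ran from -0.10 (reversed, without uninduced replicate 1) to 1.53. The lone sample of a group is then assumed to vary like the others. Quantile scaling gave Mcl1 0.67 and Bad 0.73, both past the threshold, and Bax -0.48, no longer past it. Sums without globin genes and the 10 most abundant loci gave 1 member (Bax -0.68, not past it) and 1 turnover gene. Median-of-ratios scaling added 1 death receptor gene, lower, and the 5 FPKM filter left 1 other BCL2-related gene, since fewer genes were tested. The causes of the other shifts were not tested. The share of the 3 guardian members differed by 9.76 percentage points, by 8.40 to 11.1 without 1 sample, and by 9.86 without Bcl2l1. The share of Bcl2l1 among those 3 differed by -0.23, and by -0.54 to 0.07 without 1 sample.

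The groups share replicate numbers 1 and 2, but nothing says that a number marks a shared culture or day. Deviations of same-numbered samples correlated at 0.17 across loci. With a replicate block 4238 loci passed, 2 members (the same number), 8 downstream genes (2 higher, 6 lower), 5 turnover genes (3 higher, 2 lower) and 1 death receptor gene, and Bbc3 had an adjusted p of 0.0825 (0.71).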
